A study of Mus musculus with 10 samples.

Results

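The 10 genes described here, Reln, Dab1, Vldlr, Lrp8, Cdk5, Cdk5r1, Pafah1b1, Ndel1, Dclk1 and Rnd2, encode the Reelin pathway and the cytoskeletal machinery with which newborn neurons migrate into the mouse cortex. They were picked by symbol, and all 10 had a row in both deposited tables, of 23235 genes in all. Reelin is a secreted glycoprotein that is made mostly by Cajal-Retzius cells of the marginal zone and by some GABAergic neurons. It binds the receptors Vldlr and Apoer2 (encoded by Lrp8) on migrating neurons, which leads Src family kinases to phosphorylate the adaptor Dab1. Loss of Reln, of Dab1 or of both receptors disturbs the layering of the cortex, and Cdk5, Lis1 (encoded by Pafah1b1), the doublecortin family and the small GTP-binding protein Rnd2 act on the movement of the same neurons.

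Radial glial cells of the mouse cortex had been electroporated in utero on embryonic day 13 with a plasmid for an shRNA against Chd8, a chromatin remodeller, or with a control shRNA, and GFP-positive cells were sorted from the cortices on embryonic day 15. The 4 groups sequenced were Chd8 knockdown of the new set (n = 3 libraries) with its control (n = 3) and Chd8 knockdown of the first set (n = 2) with its control (n = 2). Each library came from a pool of 3 to 5 embryos. The labels name no germline allele in any group, all groups carried GFP, and the knockdown reached electroporated cells and their progeny only. The sources used here give neither the strain nor the sex of the embryos. The new set carries the numbers 10 to 12 in its labels and sits in the table named for the first Chd8 shRNA, and the first set sits in the table named for the second. Effects of shRNA, batch and table thus cannot be told apart, and levels were compared within a table only. In each set the sorted cells held all 17 cortical neuron markers and all 15 radial glia markers found in the tables at a mean of at least 1 FPKM (mapped fragments per transcript length and sequencing depth).

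Chd8 itself averaged 1.95 ± 0.124 FPKM in new-set knockdown and 3.64 ± 0.366 FPKM in new-set control cells (SD, n = 3 each), and 8.89 ± 0.479 against 13.1 ± 1.02 FPKM in first-set knockdown and control cells (SD, n = 2 each). The groups did not overlap in either set. By limma its new-set log2 fold change was −0.65 (adjusted p = 0.0213) and its first-set one −0.51 (adjusted p = 0.152), with Benjamini-Hochberg adjustment over all genes tested. The new-set call was lost without any 1 of the libraries other than control replicate 11, with adjusted p between 0.0530 and 0.0829. The absolute sequencing depth is unknown. Relative depth was estimated as the most common ratio between low values of the same genes in 2 libraries. That ratio rested on 35 to 123 genes per library and also takes in any scaling of the FPKM. New-set libraries ranged from 0.956 to 1.39 times their control replicate 10. Both first-set knockdown libraries stood apart, at 0.527 and 0.528 times the depth of control replicate 1 and with 80.9% and 78.9% of genes above 0.1 FPKM, against 58.8% to 61.6% in the other 8 libraries. In those 2 libraries 1096 olfactory receptor genes averaged 0.672 and 0.557 FPKM, against 0.00360 and 0.00817 FPKM in their controls and at most 0.00162 FPKM in the new set. First-set values are also given without each of these libraries, knockdown replicates 1 and 2. Either fit keeps the other library, so it cannot remove what both share. In this set depth and background change together with knockdown and cannot be told apart from it.

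In the new set 4 of the 10 genes passed the threshold (adjusted p under 0.05, limma), where 8.99% of 11291 genes did. Vldlr, Dab1 and Dclk1 rose and Reln fell, where 3.84% of genes rose and 5.15% fell. In the first set 2 of the 9 genes that could be tested passed, where 23.8% of 12461 genes did, and these were other genes, with Ndel1 higher (13.2% of all genes) and Rnd2 lower (10.7%). The replicate block left the same first-set calls, where 21.8% of genes passed. A log2 fold change here is knockdown over control on the scale log2(FPKM + 1), which compresses the change of weakly expressed genes.

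Of the members, 7 had a promoter window in the RefSeq table (build GRCm38.p6). The windows of the 4 genes called in the new set and of Ndel1 are printed 5′ to 3′ on the gene's own strand, because these are the genes whose levels the results turn on. Each holds the bases of a 250-base upstream window that lie before the annotated gene (250 for Reln and Dab1, 246 for Vldlr, 239 for Ndel1 and 189 for Dclk1), and the E-box letters CANNTG, which read the same on both strands, are in capitals. Their coordinates are chr5:22344706-22344955 on the minus strand for Reln, chr19:27216234-27216479 on the plus strand for Vldlr, chr4:103619250-103619499 on the plus strand for Dab1, chr11:68853147-68853385 on the minus strand for Ndel1 and chr3:55242114-55242302 on the plus strand for Dclk1.
Reln: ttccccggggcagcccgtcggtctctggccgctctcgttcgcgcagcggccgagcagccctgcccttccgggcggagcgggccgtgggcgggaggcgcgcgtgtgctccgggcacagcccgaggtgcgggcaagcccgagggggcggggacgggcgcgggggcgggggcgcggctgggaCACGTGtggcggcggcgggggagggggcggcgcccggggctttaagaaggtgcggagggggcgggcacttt
Vldlr: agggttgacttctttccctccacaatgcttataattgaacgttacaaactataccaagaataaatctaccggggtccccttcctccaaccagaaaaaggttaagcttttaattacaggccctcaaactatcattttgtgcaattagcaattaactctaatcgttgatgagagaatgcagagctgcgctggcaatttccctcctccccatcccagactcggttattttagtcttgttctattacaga
Dab1: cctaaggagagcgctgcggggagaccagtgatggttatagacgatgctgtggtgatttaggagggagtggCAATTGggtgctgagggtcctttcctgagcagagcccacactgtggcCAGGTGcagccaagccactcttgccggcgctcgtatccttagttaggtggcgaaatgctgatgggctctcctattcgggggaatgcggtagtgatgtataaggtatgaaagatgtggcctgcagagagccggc
Ndel1: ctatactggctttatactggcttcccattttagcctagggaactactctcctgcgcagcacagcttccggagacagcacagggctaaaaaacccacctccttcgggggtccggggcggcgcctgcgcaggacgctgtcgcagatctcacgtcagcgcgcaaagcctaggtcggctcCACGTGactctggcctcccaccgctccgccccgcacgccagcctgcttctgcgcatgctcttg
Dclk1: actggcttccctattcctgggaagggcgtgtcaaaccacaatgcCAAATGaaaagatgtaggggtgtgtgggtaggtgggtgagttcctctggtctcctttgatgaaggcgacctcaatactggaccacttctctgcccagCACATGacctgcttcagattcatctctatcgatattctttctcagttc

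The Reln window was dense in CpG dinucleotides, with 37, more than 97.8% of the 32851 RefSeq windows of 250 bases, whose median was 6. That of Ndel1 held 19, and those of Dab1, Vldlr and Dclk1 held 10, 5 and 3. The windows of Reln and of Ndel1 each held 1 E-box, and in both it had the letters CACGTG, which 6.02% of all windows contain. Dab1 and Dclk1 had 2 other E-boxes each and Vldlr had none, while 66.2% of all windows have at least 1. The motif was chosen after the sequences had been seen, and a match describes letters, not bound protein.

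Within every group Rnd2 was the most abundant of the 10 genes per transcript length and Dab1 came next. Rnd2 averaged 519 ± 37.9 FPKM in new-set knockdown and 479 ± 39.2 FPKM in new-set control cells, and Dab1 averaged 165 ± 17.0 and 124 ± 9.27 FPKM (SD, n = 3 each). Vldlr and Reln were the lowest in every group. Between them lay Dclk1, Cdk5, Ndel1, Lrp8, Cdk5r1 and Pafah1b1, whose order differed between groups. In new-set knockdown cells Cdk5, Ndel1 and Lrp8 overlapped their neighbours in the order and Dclk1 lay above them, at 56.3 ± 3.52 FPKM. In new-set control cells the ranges of Lrp8, Ndel1, Cdk5 and Dclk1 ran into each other, from 40.6 ± 9.54 FPKM for Lrp8 to 36.5 ± 3.59 FPKM for Dclk1, and so did those of Cdk5r1 and Pafah1b1 and those of Vldlr and Reln. In first-set knockdown cells Ndel1, Dclk1, Cdk5r1 and Lrp8 overlapped their neighbours. In first-set control cells Lrp8, Cdk5 and Cdk5r1 did.

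**Figure D1:**
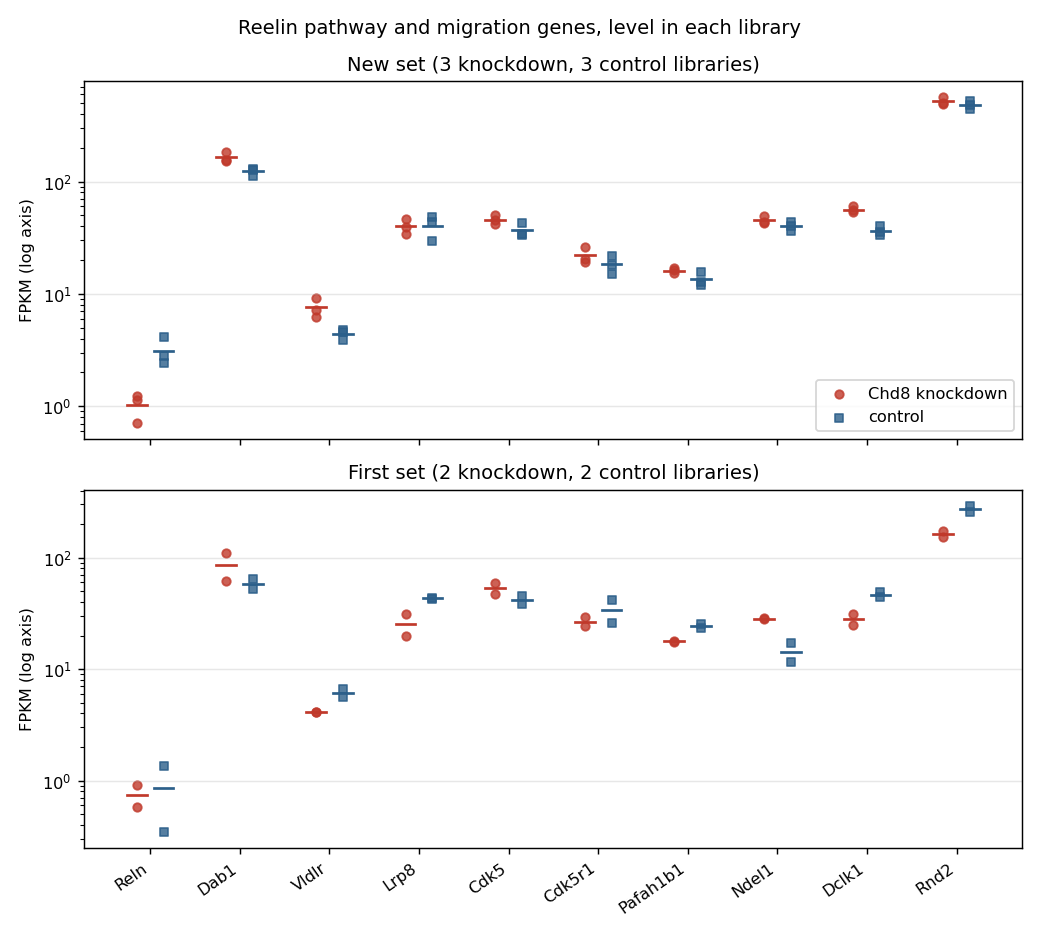
FPKM of the 10 genes (x axis) in each library, on a log axis, with new-set libraries in the upper panel and first-set libraries in the lower one. Circles are Chd8 knockdown, squares are control and bars are group means. Reln lies lower and Dab1, Vldlr and Dclk1 lie higher in all 3 new-set knockdown libraries than in any control library. In the first set Vldlr, Lrp8, Pafah1b1, Dclk1 and Rnd2 lie lower and Cdk5 and Ndel1 higher without overlap.

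Reln, the ligand, had 1.14, 1.23 and 0.705 FPKM in the new-set knockdown libraries, against 4.12, 2.80 and 2.40 FPKM in the controls. All 3 knockdown libraries lay below all 3 controls, and the knockdown mean was 33.1% of the control mean. Reln fell by 1.01 on the log2 scale (SE 0.185, adjusted p = 0.0226, limma). Reln was lower under every alternative in which it was tested (not at a minimum of 5 FPKM, which it did not reach), but the call was lost without knockdown replicate 10, 11 or 12 or without control replicate 10 (adjusted p = 0.0590, 0.0695, 0.0547 and 0.0549). In the first set Reln was listed at 0.581 and 0.912 FPKM in knockdown and 0.346 and 1.35 FPKM in control libraries. The groups overlapped, and the mean of 0.798 FPKM was under the minimum of 1 FPKM for a test. Without that minimum its first-set log2 fold change was −0.03 (SE 0.33, adjusted p = 0.946). The difference between the sets, new minus first, was then −0.97 (SE 0.365, adjusted p = 0.0624), so the sets were not shown to differ.

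Genes that mark cells known to make Reelin were lower beside Reln in the new set, and so were markers of other cells. Of 8 Cajal-Retzius markers in the tables, 6 were lower in every knockdown than in every control library and 0 were higher, where 14.9% of 17542 genes above 0 were lower and 13.6% higher. Their summed level was 7.19 to 10.6 FPKM in knockdown and 12.4 to 18.9 FPKM in control libraries. Only 2 of them reached 1 FPKM. Calb2 (calretinin) averaged 1.01 ± 0.216 against 3.50 ± 1.26 FPKM and fell (log2 fold change −1.13, adjusted p = 0.0234). Nhlh2, a transcription factor, averaged 6.28 ± 1.33 against 9.63 ± 1.82 FPKM in knockdown and control cells (adjusted p = 0.0837, and 0.0338 with the replicate block). Trp73, a defining marker of Cajal-Retzius cells, was at 0.345 ± 0.139 FPKM in knockdown and 1.05 ± 0.241 FPKM in control cells.

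Of 15 GABAergic markers, 13 were lower in every new-set knockdown than in every control library (14.9% of genes above 0) and 0 higher (13.6%). Their summed level was 13.4 to 17.3 FPKM in knockdown and 21.8 to 32.7 FPKM in control libraries. Of the 5 that reached 1 FPKM, Dlx2, Dlx5, Lhx6 (transcription factors) and Sst (somatostatin) fell. Dlx2, Dlx5 and Lhx6 had knockdown means of 0.971, 0.542 and 0.750 FPKM and reached that minimum through the control libraries. The share of tested markers that fell is therefore partly set by the filter. Sst averaged 5.31 ± 0.487 FPKM in knockdown against 10.6 ± 1.55 FPKM in control cells (log2 fold change −0.88, adjusted p = 0.0138), and Dlx2 0.971 ± 0.477 against 3.36 ± 1.03 FPKM (−1.14, adjusted p = 0.0270). Dlx5 and Lhx6 had log2 fold changes of −0.75 and −0.67. The neuropeptide gene Npy did not pass, at 6.15 ± 1.93 FPKM in knockdown and 5.70 ± 2.13 FPKM in control cells. None of the markers of either list was at 0 throughout a set. Markers of intermediate progenitors summed to 667 to 736 FPKM in knockdown and 976 to 1136 FPKM in control libraries. Of these 11 markers 5 fell and 0 rose, where 5.15% and 3.84% of all genes did. Erythroid markers summed to 23.6 to 115 FPKM in knockdown and 150 to 281 FPKM in control libraries, and 4 of 9 were lower without overlap (of 5 tested, 2 fell). The part of these cells in the Reln difference was not tested, and in bulk RNA fewer cells of a type and less RNA per cell cannot be told apart.

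None of the Cajal-Retzius or GABAergic markers passed the test as lower in the first set. The summed Cajal-Retzius markers were 8.17 and 6.22 FPKM in knockdown against 2.88 and 8.68 FPKM in control libraries. The summed GABAergic markers were 24.4 and 62.8 FPKM in knockdown against 60.9 and 28.5 FPKM in control libraries. The groups overlapped in both sums. By library 4 of the 8 Cajal-Retzius markers were higher in both knockdown libraries and 0 lower, where 39.1% of 20580 genes above 0 were higher and 25.9% lower, and 4 of the 15 GABAergic markers were higher and 2 lower. Of the 10 GABAergic markers tested by limma 0 passed. Sst, at 3.19 and 5.81 FPKM in knockdown and 12.96 and 7.64 FPKM in control libraries, was lower in both without passing (−1.04, adjusted p = 0.0711). Of 3 Cajal-Retzius markers tested Ebf2 rose (1.10, adjusted p = 0.0232, limma). Ebf2 reached the minimum of 1 FPKM only with knockdown replicate 1 included, so without that library it could not be tested. Without knockdown replicate 2 its log2 fold change was 1.26. The test of the difference between the sets called 0 of 5 GABAergic and 0 of 2 Cajal-Retzius markers, so the sets were not shown to differ in them. In the mean of both sets' fold changes 1 of the 5 and 1 of the 2 fell and 0 rose, where 20.5% of all genes fell and 9.37% rose. Of 9 microglia markers 7 were higher in both first-set knockdown libraries and 0 lower, where 39.1% of genes above 0 were higher and 25.9% lower. Of the 8 that reached 1 FPKM 5 rose, where 13.2% of all genes did. That minimum is a mean over knockdown and control libraries. High knockdown values helped these markers reach it, so this count is partly set by the filter. The microglia sums were 16.9 and 34.0 FPKM in knockdown against 2.13 and 7.36 FPKM in control libraries. The median log2 fold change of these markers was 2.04 without knockdown replicate 1 and 1.07 without replicate 2, over 7 and 5 tested. Intermediate progenitor markers summed to 1029 and 594 FPKM in first-set knockdown against 626 and 629 FPKM in control libraries, which overlapped. Of these 11 markers 2 rose and 3 fell in the first set, where 13.2% and 10.7% of all genes did.

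**Figure D2:**
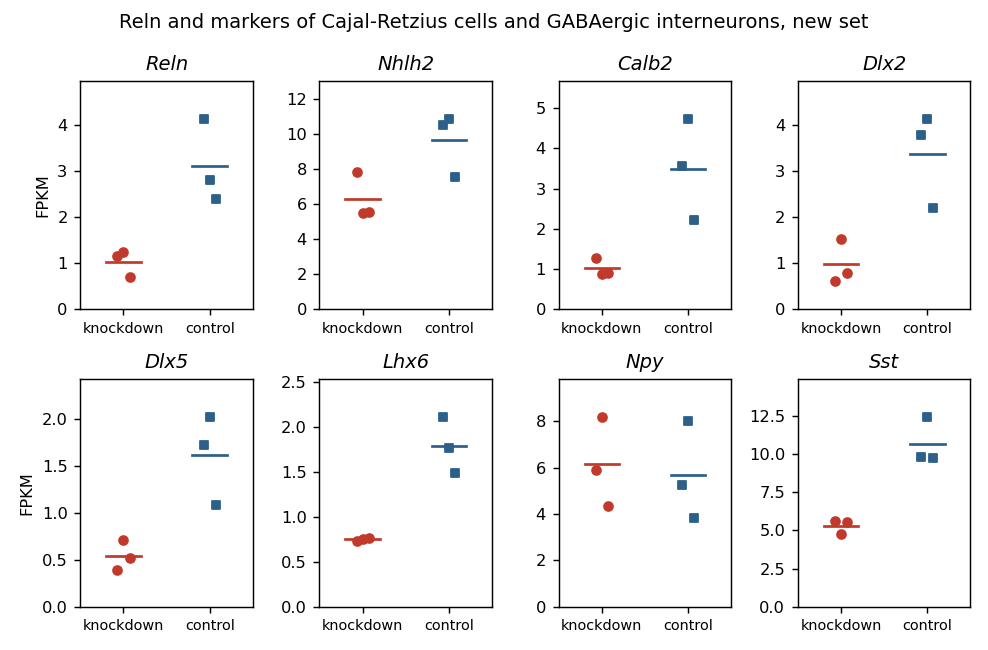
FPKM (y axes from 0) of Reln, of the Cajal-Retzius markers Nhlh2 and Calb2 and of the GABAergic markers Dlx2, Dlx5, Lhx6, Npy and Sst in the new set. Circles are the 3 knockdown libraries, squares the 3 control libraries and bars their means. Knockdown and control libraries overlap for Npy and Nhlh2. Reln and the 5 other markers are lower in every knockdown library.

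Vldlr, the Reelin receptor known to act at the end of migration, had 7.23, 9.27 and 6.27 FPKM in new-set knockdown libraries, against 4.76, 4.60 and 3.89 FPKM in the controls. Every knockdown library was above every control, and the mean was 1.72 times as high. Vldlr rose by 0.65 on the log2 scale (SE 0.150, adjusted p = 0.0377, limma). The call was kept without control replicate 11 and lost without any other library (adjusted p = 0.0502 to 0.122), as it was with no filter on low values (0.0760). First-set libraries gave 4.16 and 4.12 FPKM in knockdown and 5.63 and 6.60 FPKM in control libraries, lower in both knockdown libraries (−0.47, SE 0.248, adjusted p = 0.204). Without knockdown replicate 1 or 2 its first-set log2 fold change was −0.47 or −0.46.

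Lrp8, which encodes the other Reelin receptor, Apoer2, had 39.2, 34.1 and 46.6 FPKM in new-set knockdown and 48.0, 29.8 and 44.0 FPKM in control libraries. The groups overlapped fully, and the 95% interval of the log2 fold change ran from −0.43 to 0.42. In first-set libraries Lrp8 had 19.9 and 31.3 FPKM in knockdown, against 42.6 and 43.7 FPKM in control. Both knockdown values were lower, without passing the test (−0.77, SE 0.260, adjusted p = 0.0708). It was −0.45 without knockdown replicate 1 and −1.08 without knockdown replicate 2. The ratio of Vldlr to Lrp8 FPKM, a description with no test, was 0.184, 0.272 and 0.134 in new-set knockdown against 0.0993, 0.154 and 0.0885 in control libraries. It was higher in knockdown within each of the 3 replicate numbers, although the groups overlapped. First-set ratios were 0.209 and 0.132 in knockdown and 0.132 and 0.151 in control libraries, which also overlapped.

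Dab1, the intracellular adaptor of both receptors, had 153, 184 and 157 FPKM in new-set knockdown, against 130, 128 and 113 FPKM in control libraries. The groups did not overlap and the mean was 1.33 times as high. It rose by 0.41 on the log2 scale (SE 0.102, adjusted p = 0.0465, limma). That call lay close to the threshold and was lost without any library other than control replicate 11 (adjusted p = 0.0813 to 0.162). It was also lost with no mean-variance trend (adjusted p = 0.0620) and with no filter on low values (0.0743). First-set libraries had 109 and 61.8 FPKM in knockdown and 64.1 and 52.7 FPKM in control, with a similar point estimate but overlapping groups (0.49, SE 0.295, adjusted p = 0.252). The estimate rested on knockdown replicate 1, since it was 0.088 without that library and 0.90 without knockdown replicate 2.

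Cdk5, a neuronal kinase that acts in parallel to Reelin, had 45.1, 50.6 and 41.5 FPKM in new-set knockdown and 34.4, 42.8 and 33.5 FPKM in control libraries. The groups overlapped through control replicate 11, and the log2 fold change of 0.30 (SE 0.118) had an adjusted p of 0.129. The labels do not say that replicate numbers pair libraries, but same-numbered new-set libraries deviated together. With the number as a block the adjusted p was 0.0267, where 21.7% of genes passed. First-set values were 59.6 and 47.0 FPKM in knockdown and 45.7 and 38.3 FPKM in control libraries, higher in knockdown without overlap (0.33, SE 0.224, adjusted p = 0.303). The fold change was 0.16 without knockdown replicate 1 and 0.50 without knockdown replicate 2.

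Cdk5r1, which encodes the Cdk5 activator p35, had 20.6, 19.2 and 26.3 FPKM in new-set knockdown and 18.0, 14.97 and 21.9 FPKM in control libraries (0.26, SE 0.160, adjusted p = 0.308). Its first-set values were 24.2 and 29.1 FPKM in knockdown and 26.1 and 41.2 FPKM in control libraries (−0.30, SE 0.271, adjusted p = 0.443, with −0.17 and −0.42 without knockdown replicates 1 and 2). The groups overlapped in both sets.

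Pafah1b1, which encodes the dynein regulator Lis1, had 16.2, 15.3 and 16.9 FPKM in new-set knockdown and 12.8, 12.1 and 15.8 FPKM in control libraries. The groups overlapped (0.24, SE 0.115, adjusted p = 0.200). First-set values were 18.0 and 17.5 FPKM in knockdown and 25.3 and 23.4 FPKM in control libraries. Both knockdown values were lower, without passing the test (−0.43, SE 0.211, adjusted p = 0.173, with −0.45 and −0.41 without knockdown replicates 1 and 2).

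Ndel1, whose protein binds Lis1 and dynein and is a Cdk5 substrate, had 28.7 and 27.9 FPKM in first-set knockdown, against 17.0 and 11.7 FPKM in control libraries. Both knockdown values lay above both controls, with a mean 1.98 times as high. It rose by 0.96 on the log2 scale (SE 0.249, adjusted p = 0.0328), or by 1.11 relative to the first-set median over all genes, which was −0.15. The call was lost without any 1 of the 4 libraries (adjusted p = 0.0607 to 0.172) and with no filter on low values (0.0720), and the fold change was 0.94 or 0.98 without knockdown replicate 1 or 2. New-set values were 42.4, 49.0 and 43.7 FPKM in knockdown and 39.8, 43.3 and 36.6 FPKM in control libraries, which overlapped (0.17, SE 0.0951, adjusted p = 0.257).

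Dclk1, a doublecortin-like kinase of microtubules, had 55.7, 60.1 and 53.2 FPKM in new-set knockdown, against 40.5, 33.6 and 35.4 FPKM in control libraries. It stood clear of the controls in all 3 knockdown libraries, with a mean 1.54 times as high. Dclk1 rose by 0.62 on the log2 scale (SE 0.0952, adjusted p = 0.0168, limma), and the call was lost without knockdown replicate 10 (adjusted p = 0.0509) or 11 (0.0692). In the first set the order was opposite, with 24.8 and 31.1 FPKM in knockdown and 49.1 and 44.1 FPKM in control libraries. That difference missed the threshold (−0.73, SE 0.219, adjusted p = 0.0512) and passed it with the olfactory background subtracted (−0.76, adjusted p = 0.0466). Without knockdown replicate 1 it was −0.57 and without knockdown replicate 2 −0.88, with adjusted p of 0.199 and 0.0828.

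Rnd2, a small GTP-binding protein that promotes the radial migration of cortical neurons, had 172 and 152 FPKM in first-set knockdown, against 290 and 257 FPKM in control libraries. Both knockdown values were lower, and their mean was 59.2% of the control mean. Rnd2 fell by 0.75 on the log2 scale (SE 0.200, adjusted p = 0.0351, limma), or by 0.61 relative to the median over all genes. The call was lost without any 1 of the 4 libraries (adjusted p = 0.106 to 0.209), and after median-of-ratios rescaling the log2 fold change was −0.49 (adjusted p = 0.144). It was −0.84 without knockdown replicate 1 and −0.66 without knockdown replicate 2, and the call was also lost with no trend (0.0545) and without the low-value filter (0.0566). New-set values were 501, 562 and 493 FPKM in knockdown and 438, 483 and 516 FPKM in control libraries, which overlapped (0.12, SE 0.108, adjusted p = 0.498).

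Rnd2 is a known direct target of the proneural factor Neurog2 in the embryonic mouse cortex. Neurog2 fell in the new set (186 ± 12.05 FPKM in knockdown and 278 ± 10.1 FPKM in control cells, log2 fold change −0.58, adjusted p = 0.0149), where Rnd2 was not called. The ratio of Rnd2 to Neurog2 FPKM was 2.52, 3.21 and 2.68 in new-set knockdown against 1.61, 1.67 and 1.90 in control libraries. It was higher in all 3 knockdown libraries than in any control. First-set ratios were 5.20 and 6.22 in knockdown and 9.52 and 6.19 in control libraries, which overlapped. These ratios were chosen after the values had been seen and carry no test.

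**Figure D3:**
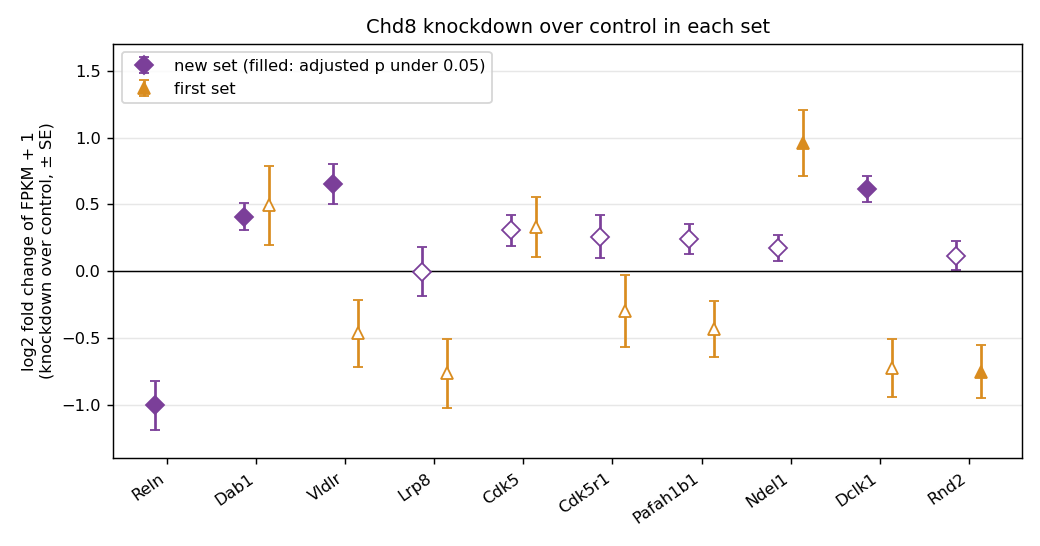
Log2 fold change of FPKM + 1, Chd8 knockdown over control, for each gene (x axis) in the new set (diamonds) and the first set (triangles), with error bars of 1 SE from limma and filled symbols where the adjusted p was under 0.05. Reln has no first-set point because it was not tested there. Dab1, Cdk5 and Ndel1 lie above 0 in both sets, and Vldlr, Cdk5r1, Pafah1b1, Dclk1 and Rnd2 lie on opposite sides.

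By overlap alone, 3 of the 10 genes were higher and 1 lower in all new-set knockdown libraries, where 18.6% and 17.1% of genes tested were and 35.7% were separated in either direction. Of the 9 tested in the first set, 2 were higher (Cdk5 and Ndel1) and 5 lower (Vldlr, Lrp8, Pafah1b1, Dclk1 and Rnd2), where 27.4% and 40.4% of genes were and 67.8% were separated in either direction. The median log2 fold change of the 10 genes was 0.25 in the new set, against 0.02 over all genes, and −0.43 over the 9 genes in the first set, against −0.15. With 3 against 3 libraries an exact two-sided permutation test cannot go below p = 0.1, which Reln, Dab1, Vldlr and Dclk1 reached, and with 2 against 2 it cannot go below 0.33.

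Taking the mean of both sets' fold changes in a joined limma fit, 3 of 9 genes passed, where 29.9% of 10827 genes did. Ndel1 rose by 0.57 (SE 0.110, adjusted p = 0.00427) and Dab1 rose by 0.45 (SE 0.144, adjusted p = 0.0364), where 9.37% of genes rose. Rnd2 fell by 0.32 (SE 0.0950, adjusted p = 0.0269), where 20.5% of genes fell and the all-gene median was −0.11. Its first-set fold change was −0.75, while the new-set one was positive with overlapping groups, so the mean is not a fall in both sets. Ndel1 passed under every alternative, leaving out each library in turn included. Its mean is mostly the first-set rise of 0.96, since the new-set fold change was smaller and uncalled, with overlapping groups. The Ndel1 fold change also differed between the sets (−0.79, adjusted p = 0.0198, joined limma fit). Leaving out 1 library cannot remove what both first-set knockdown libraries share. Dab1 was lost without any 1 of 8 libraries, the exceptions being first-set knockdown replicate 2 and first-set control replicate 1, with adjusted p of 0.0510 to 0.120. Its joined value was 0.25 without first-set knockdown replicate 1. Rnd2 was lost without new-set knockdown replicate 10 or 12, new-set control replicate 12, first-set knockdown replicate 2 or first-set control replicate 1, with adjusted p of 0.0616 to 0.0789. After rescaling its joined value was −0.20 (adjusted p = 0.162), and Cdk5 passed (0.44, adjusted p = 0.0184). With the replicate block, where 34.1% of genes passed, Cdk5 (0.32, adjusted p = 0.0151, 0.0515 without the block) and Lrp8 (−0.39, adjusted p = 0.0396, 0.0877 without it) also passed. An exact permutation test within sets, two-sided over 120 regroupings and with a smallest possible p of 0.0167, gave p = 0.0333 each for Dab1, Cdk5 and Ndel1, 0.0833 for Reln and 0.283 for Rnd2, without adjustment over the 10 genes.

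For 5 of 9 genes the new-set fold change differed from the first-set one (joined limma fit), where 32.5% of 10827 genes did. The difference, new minus first on the log2 scale, was 1.34 for Dclk1 (SE 0.196, adjusted p = 0.00115), 1.12 for Vldlr (SE 0.247, adjusted p = 0.00664), 0.87 for Rnd2 (SE 0.190, adjusted p = 0.00643), 0.67 for Pafah1b1 (SE 0.198, adjusted p = 0.0238) and −0.79 for Ndel1 (SE 0.221, adjusted p = 0.0198). The median difference over all genes was 0.23, and relative to it these values were 1.11, 0.89, 0.63, 0.44 and −1.02. Vldlr and Dclk1 were separated without overlap in opposite directions in the 2 sets, as 12.9% of genes were. Lrp8 (0.76, adjusted p = 0.0876, 0.0392 with the replicate block) and Cdk5r1 (0.56, adjusted p = 0.184, 0.0438 with the block) differed only with the block, where 36.1% of genes did. For Dab1 and Cdk5 the 95% intervals of the difference, −0.72 to 0.55 and −0.52 to 0.46, include 0 and reach beyond the size of either set's fold change.

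Markers of cortical neurons differed between the groups in both sets. In the new set 9 of 17 rose and 0 fell (14 and 0 with the replicate block), with a median log2 fold change of 0.54 and a summed level of 3729 to 4660 FPKM in knockdown and 2629 to 3149 FPKM in control libraries. In the first set 0 rose and 6 fell (0 and 4 with the block, and 0 or 1 fell without knockdown replicate 1 or 2), with a median of −0.43 and sums of 3713 and 3394 FPKM in knockdown against 5386 and 4955 FPKM in control libraries. Radial glia markers fell in 9 of 15 cases in the new set, where their sum was 1251 to 1842 FPKM in knockdown and 1538 to 1976 FPKM in control libraries, and in 3 of 15 cases in the first set. Over all genes 3.84% rose and 5.15% fell in the new set (21.7% called with the block). In the first set 13.2% of all genes rose and 10.7% fell (21.8% called with the block). The part of these cell types in the members' differences was not tested.

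A further 3 lists hold other genes of the same pathways. Of 32 other Reelin signalling genes tested in the new set, 3 rose and 1 fell, with a median of 0.05, and with the replicate block 5 rose and 4 fell. Of all genes 3.84% rose and 5.15% fell, and 21.7% were called with the block. Adamts3, which encodes a protease that cleaves and inactivates Reelin, averaged 15.5 ± 1.13 FPKM in knockdown and 7.53 ± 1.79 FPKM in control cells (0.97, adjusted p = 0.0190). Lrpap1, a chaperone of lipoprotein receptors, averaged 125 ± 4.17 against 84.9 ± 5.58 FPKM (0.55, adjusted p = 0.0139), and Pik3r1, a regulatory subunit of PI3 kinase, 6.42 ± 0.443 against 4.10 ± 0.703 FPKM (0.55, adjusted p = 0.0411). Socs6, a substrate adaptor of Cullin-5 ubiquitin ligases, fell to 14.3 ± 1.21 FPKM in knockdown, against 24.7 ± 1.25 FPKM in control cells (−0.75, adjusted p = 0.0103). Of 33 tested in the first set, 2 rose and 7 fell (0 and 8 with the block), with a median of −0.44, where 13.2% and 10.7% of all genes did. Without knockdown replicate 1 or 2, 1 or 2 of them fell and 0 rose. Gsk3b, a kinase inhibited downstream of Reelin through Akt, was at 93.1 ± 42.3 FPKM in knockdown and 342 ± 40.2 FPKM in control cells (−1.94, adjusted p = 0.00656). Its fold change was −1.46 or −2.41 without knockdown replicate 1 or 2. Nck2, Nedd4, Cul5 and Crkl also fell (−0.82 to −0.98). Without knockdown replicate 1 they were at −0.81, −0.68, −0.75 and −0.80, and without knockdown replicate 2 at −0.83, −1.24, −1.20 and −1.05. In the mean of both sets' fold changes 3 of 32 rose and 9 fell, where 9.37% and 20.5% of all genes did. Gsk3b (−0.93), Socs6 (−0.66), Nedd4 (−0.54) and Fyn (−0.45) were lower and Pik3r1 (0.55) was higher. In the new set Gsk3b averaged 27.3 ± 1.71 FPKM in knockdown and 25.9 ± 1.30 FPKM in control cells, with overlap, so its mean is not a fall in both sets. Between the sets 10 differed with the new set higher and 1 with it lower, where 22.5% and 9.98% of all genes did, and Adamts3 was among them (2.10, adjusted p = 0.00240).

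Of 30 other genes of the Cdk5, Lis1, dynein and doublecortin machinery tested in the new set, 3 rose and 1 fell, and 26 had a fold change above 0 (median 0.25). With the replicate block 12 rose and 1 fell. Of all genes 3.84% rose and 5.15% fell, and 21.7% were called with the block. Dcx, which encodes doublecortin, averaged 129 ± 14.9 FPKM in knockdown and 90.9 ± 8.57 FPKM in control cells (0.49, adjusted p = 0.0354). Mapre1, a microtubule plus-end protein (0.39, adjusted p = 0.0323), and Cdk5r2, which encodes the second Cdk5 activator p39 (0.60, adjusted p = 0.0386), also rose. Cdk5r2 averaged 1.77 ± 0.372 FPKM in knockdown and 0.822 ± 0.0854 FPKM in control cells, so it reached 1 FPKM through the knockdown libraries. Of 30 tested in the first set, 1 rose and 7 fell (median −0.45), where 13.2% and 10.7% of all genes did. Without knockdown replicate 1, 0 rose and 0 fell, and without knockdown replicate 2, 1 rose and 3 fell. Dcx averaged 34.1 ± 12.05 FPKM in knockdown and 85.2 ± 5.85 FPKM in control cells (−1.34, adjusted p = 0.0147, and 0.0849 or 0.0255 without knockdown replicate 1 or 2). Mapre1 (−0.89) and the microtubule-severing gene Katna1 (−0.98) fell as well, and Nudc, which encodes a Lis1-stabilising partner, rose (1.43, adjusted p = 0.0130). Without knockdown replicate 1 these fold changes were −0.79, −0.95 and 1.05, and without knockdown replicate 2 they were −0.995, −1.01 and 1.82. Of 29 genes in the joined fit, 15 differed between sets with the new set higher, Dcx by 1.83 and Mapre1 by 1.28 among them, and 1 with it lower (Nudc, −1.34), where 22.5% and 9.98% of all genes did. In the mean of both sets 5 rose and 7 fell, where 9.37% and 20.5% of all genes did.

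Nde1, the paralogue of Ndel1, fell in both sets. It averaged 36.2 ± 3.38 against 53.8 ± 1.83 FPKM in new-set knockdown and control cells (−0.56, adjusted p = 0.0180) and 26.9 ± 7.92 against 61.1 ± 2.34 FPKM in the first set (−1.18, adjusted p = 0.0174, and 0.101 or 0.0336 without knockdown replicate 1 or 2). In the joined fit Nde1 was at −0.87 (SE 0.115, adjusted p = 0.000761), where Ndel1 was at 0.57. Nde1 is known for its role in the division of cortical progenitors.

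Among 35 other genes tied to the multipolar to bipolar transition of migrating neurons that were tested in the new set, 4 rose and 2 fell (median −0.02), and with the replicate block 6 rose and 5 fell. The shares over all genes were 3.84% and 5.15%, and 21.7% in either direction with the block. Neurog2 and the gap junction gene Gja1 (−0.70, adjusted p = 0.0407) fell. The chemokine gene Cxcl12 (0.56), the transcriptional repressor gene Zfp238 (0.48) and the nuclear receptor gene Nr2f1 (0.45) were among those that rose. Of 36 tested in the first set, 1 rose and 7 fell (median −0.51), where 13.2% and 10.7% of all genes did. The list median was −0.34 without knockdown replicate 1 and −0.61 without knockdown replicate 2. Rnd3, which encodes a Rnd family relative of Rnd2 and likewise acts in migration, fell to 63.0 ± 6.47 FPKM in knockdown, against 171 ± 17.8 FPKM in control cells (−1.42, adjusted p = 0.00366, and 0.0459 or 0.0334 without those libraries). Sox11 (−1.24), Sox4 (−1.01), Pou3f2 (−1.18), all transcription factor genes, and Sun1 (−0.97), of the nuclear envelope, fell too. In the new set Rnd3 averaged 89.8 ± 6.71 FPKM in knockdown and 103 ± 7.41 FPKM in control cells (−0.19, adjusted p = 0.195), and the sets differed by 1.23 (adjusted p = 0.00120). In all, 11 of 35 differed with the new set higher and 1 with it lower, where 22.5% and 9.98% of all genes did. In the mean of both sets 1 rose and 11 fell, where 9.37% and 20.5% of all genes did.

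**Figure D4:**
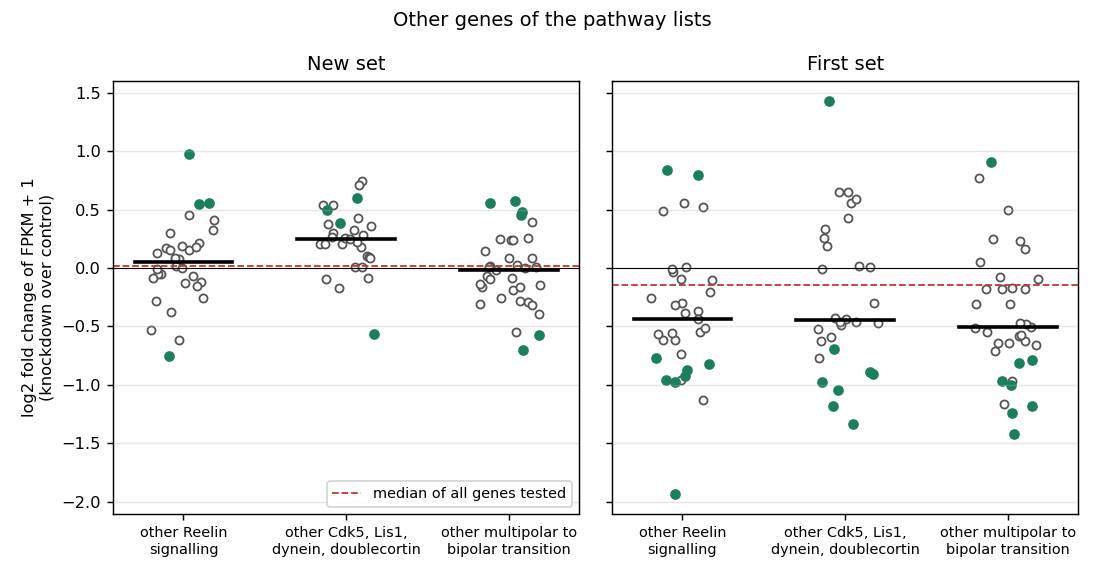
Log2 fold change of FPKM + 1, Chd8 knockdown over control, of each tested gene of the 3 further lists (x axis), with the new set in the left panel and the first set in the right one. Filled points passed limma at an adjusted p under 0.05, black bars are list medians and the dashed line is the median over all genes tested (0.02 on the left and −0.15 on the right). In the new set the Cdk5, Lis1, dynein and doublecortin list has a median of 0.25, and in the first set the list medians lie between −0.44 and −0.51.

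The genes whose levels followed each called member most closely were taken from log2(FPKM + 1) across the 10 libraries, centred within each set, by Pearson correlation among genes tested in both. For Reln these were Gm16973 (0.968), Ahi1 (0.951) and Bcan (0.939), for Dab1 Ptpn4 (0.965), Isyna1 (0.965) and Comtd1 (0.960), and for Vldlr Pcdha12 (0.979), Hs6st2 (0.977) and Amz2 (0.976). For Ndel1 they were Mlf2, Cib1 and Ostf1 (0.988 each), for Dclk1 Gpr21 (0.982), Ccdc129 (0.977) and Uba1 (0.976), and for Rnd2 4632415K11Rik (0.979), 2010321M09Rik (0.973) and Cnot4 (0.969). None of these recurred among the 3 nearest genes over the 6 new-set libraries alone, where Vldlr was nearest to Sox5 and Dclk1 to Wnt7b. The libraries within a set share processing and depth, and the correlations describe them only.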

How the data were processed

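Sorted GFP-positive cells of electroporated mouse cortices gave total RNA (RNeasy Plus kit), from which low-input Clontech libraries were made, per the labels' protocols. The authors deposited FPKM values in 2 tables, with 23235 symbols in each and a column for each library. The submitters' processing notes name TopHat2, Bowtie, Cufflinks 2.0.0, Cuffdiff and the build mm9. For annotation, read filters and any use of strand the sources used here give nothing, and FPKM are per gene, with no value per transcript.

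Here, values were taken as log2(FPKM + 1). Genes had to reach a table mean of 1 FPKM to be tested with limma 3.58.1 in R 4.3.3 (eBayes with trend, two-sided, Benjamini-Hochberg over all genes tested). A joined fit with 4 group means gave the mean of both sets' fold changes and their difference. All 10 columns were mapped by name. The design text states separate pools of embryos as replicates. The replicate block, an alternative fit, treated replicate numbers as pairs. The labels do not state such pairs. They were taken from these data, where same-numbered new-set knockdown and control libraries deviated together (r = 0.122, 0.242 and 0.193 over 11291 genes). The main fit has no block. The model scripts were tested on simulated data.

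The members and lists were chosen with earlier results of these data known. Named were all members, the 3 genes nearest to each called member, up to 5 called genes per other list and comparison with the smallest p, and Cajal-Retzius and GABAergic markers reaching a table mean of 1 FPKM (of the first-set ones only Ebf2 and Sst are written out), while Trp73 and all ratios were picked after their values were seen. Some markers are not reported here and are left out of the list counts and sums. Promoter windows are from RefSeq (GRCm38.p6), and none was placed on mm9. Alternatives tried were a pseudocount of 0.1, no filter on low values, a minimum of 5 FPKM, no trend, median-of-ratios rescaling, subtraction of the olfactory receptor mean, the replicate block, each library left out and, added after the data were seen, separate set weights and each first-set knockdown library left out for the other lists.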

Additional observations from a re-analysis of the deposited data

Results flagged for a closer look

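Of the 9 members tested in both sets, 5 had fold changes that differed between them by the test of the difference itself. This joined limma test used the 10 libraries and called 32.5% of all 10827 genes. For Dclk1 the new-set log2 fold change was 0.62 and the first-set one −0.73, a difference of 1.34 (adjusted p = 0.00115). For Vldlr it was 0.65 and −0.47, a difference of 1.12 (adjusted p = 0.00664). For Rnd2 it was 0.12 and −0.75, a difference of 0.87 (adjusted p = 0.00643). For Pafah1b1 it was 0.24 and −0.43, a difference of 0.67 (adjusted p = 0.0238). For Ndel1 it was 0.17 and 0.96, a difference of −0.79 (adjusted p = 0.0198). Because shRNA, batch and table all change from set to set, they cannot be told apart here. Markers of cortical neurons and the share of weakly detected genes also differed between the sets in the ways given above, and their part in these differences was not tested.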

How the results depend on the processing

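Depth is unknown in counts, and with 2 or 3 libraries a group the calls are fragile. With no filter on low values 470 genes were called in the new set (1015 with the filter), 5917 in the joined fit (3238) and 6345 for the difference (3520), and of the members 2 were called in the new set, 0 in the first. A minimum of 5 FPKM gave 1602 first-set calls, against 2971. The replicate block called 2452 genes in the new set, where Cdk5 was added to the members, and 5 members in the joined fit. Without the mean-variance trend 3 new-set members were called, against 4 (Dab1 was lost). Without the trend, and after median-of-ratios rescaling, 1 first-set member was called. Separate set weights gave 2139 genes and 1 member in the joined fit and 2307 genes for the difference. Rescaling gave joined log2 fold changes of 0.10 for Cdk5r1, 0.018 for Pafah1b1 and 0.062 for Dclk1, each turned round from an uncalled value near 0, because it shifted the all-gene median from −0.11 to −0.0060. It moved the first-set share of calls that were higher to 81.6%, against 55.2%, the joined share to 54.6%, against 31.3%, and that of the difference to 42.4%, against 69.3%. Olfactory background subtraction gave 40.8%, 22.9% and 78.1% for these shares. The first-set median over all genes was 0.089 after rescaling and −0.29 after subtraction, against −0.15. No member's first-set direction turned under either.

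Leaving out each library in turn gave 88 (without knockdown replicate 11) to 1883 (without control replicate 11) genes and 0 to 5 members in the new set. It gave 713 (without control replicate 2) to 1247 (without knockdown replicate 2) genes and 0 members in the first set, 1 to 4 members in the joined fit and 3 to 6 members for the difference. Uncalled values changed sign, with ranges of −0.21 to 0.13 for Lrp8 in the new set and −0.62 to 0.021 for Cdk5r1 in the first. Joined values ranged from −0.18 to 0.14 for Cdk5r1 and from −0.13 to 0.025 for Dclk1, and differences from −0.49 to 0.32 for Dab1 and from −0.20 to 0.14 for Cdk5. The causes were not tested. Dclk1, Vldlr and Rnd2 differed between sets under every alternative. The difference was lost for Ndel1 without new-set knockdown replicate 10 or first-set control replicate 2 (−0.54), and for Pafah1b1 with rescaling (0.41, adjusted p = 0.160), with set weights and without any 1 of 4 libraries. In the first set, same-numbered libraries did not deviate together (r = −0.028). No other member call was changed by the block than those given above.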

Other observations

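The 10 members together summed to 881, 985 and 885 FPKM in new-set knockdown libraries and to 771, 794 and 823 FPKM in control libraries, with no overlap, and most of each sum was Rnd2 and Dab1. In the first set the sums were 461 and 403 FPKM in knockdown and 566 and 520 FPKM in control libraries. The ratio of Ndel1 to Pafah1b1 FPKM, 2 genes whose products bind each other, was 1.60 in both first-set knockdown libraries, against 0.672 and 0.498 in the controls. New-set ratios were 2.63, 3.21 and 2.59 in knockdown and 3.11, 3.59 and 2.32 in control libraries, which overlapped. These sums and ratios were looked at after the values had been seen and carry no test.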
